A study of Mus musculus with 9 samples.

Results

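Livers of APAP-overdosed mice that received adipose-derived mesenchymal stem cells (AMSCs) were compared with livers of APAP-overdosed mice that did not, 6 h after the overdose. The members were the 9699 genes, of 54532 in the deposited table, with a mean of at least 1 FPKM (fragments per kilobase of gene length, scaled by a factor for each library) over the 9 liver libraries of the series. The study followed hepatic gene expression after an acetaminophen (APAP) overdose and asked whether AMSC transfer changes it. The APAP group held 3 livers (replicates 1, 2 and 3) of male C57BL/6 mice aged 5 to 7 weeks that were fasted overnight and given 500 mg/kg APAP intraperitoneally. The AMSC group held 3 livers (replicates 2, 3 and 4) of mice that had the same fast and the same 500 mg/kg APAP, and then at once 200000 AMSCs through the tail vein. The NC group held 3 livers of control C57BL/6 mice without APAP or AMSCs, and whether these mice were fasted is not stated. The AMSCs came from inguinal fat of C57BL/6 mice, so transcripts of injected cells have the same sequence as those of the host. Gene coordinates are those of the table, on GRCm38, the build that the submitters' processing notes name. Nothing in the labels says how the livers were spread over cages or litters, so p-values here measure the spread between these livers.

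In the liver, APAP is turned into a reactive quinone imine mainly by CYP2E1, an enzyme of the hepatocytes that surround the central vein. Those pericentral cells run out of glutathione first and die, while periportal hepatocytes, which carry out most urea synthesis and gluconeogenesis, are largely spared. Surviving hepatocytes and Kupffer cells then switch on stress kinases, cytokines, the acute-phase response and growth factor signals. Mesenchymal stem cells are known to release soluble factors that act on injured tissue and on immune cells.

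Reads on genes, which could be recovered from FPKM and gene length, came to 13640978 to 14167230 per library in the APAP group and 13418921 to 16210930 in the AMSC group. In these 6 libraries, 1 read on a gene of 1 kilobase was worth between 0.063 and 0.0807 FPKM. All 18 hepatocyte core genes in the table were expressed above the minimum, and the albumin gene Alb stood at 41999.9, 46612 and 45891 FPKM in the APAP group and 31190.0, 33926 and 34423 FPKM in the AMSC group. The labels carry the same date for all APAP and AMSC livers and another date for 1 of the 3 NC livers, which enters the NC means, and nothing else in them marks a batch between these groups. The first principal component took 49.3% of the variance of the 6 libraries and separated the groups, and the second (21.1%) set APAP replicate 1 apart from the others. Markers of pericentral hepatocytes, red cells and macrophages differed more among the APAP livers than among the AMSC livers, and the values of each liver are given below, always in the order APAP replicates 1, 2 and 3 and AMSC replicates 2, 3 and 4.

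Between the AMSC and APAP groups, 190 of the 9699 genes were DEGs (1.96%), which here means a Benjamini-Hochberg adjusted p of at most 0.05 from limma on log2(FPKM + 1) together with a log2 fold change of 1 or more up or down. In the AMSC group 72 (0.742%) were higher and 118 (1.22%) were lower. Counts of DEGs in the gene lists below are to be set beside these shares. An adjusted p of at most 0.05 alone was reached by 367 genes (3.78%). The groups did not overlap in any of the 190 DEGs. Over all genes tested, every AMSC liver was above every APAP liver for 1418 genes (14.6%) and below for 1205 (12.4%), and the median log2 fold change was 0.01. Fold changes on this scale understate those of genes with low FPKM. The 10 largest rises were those of Saa2, Gm43305, Saa1, Cyp2a5, Lcn2, Oat, Mup17, Mir122, Orm2 and Cyp2c38, and the 10 largest falls those of Hilpda, Dusp5, Hbegf, Cd14, Mir6386, Thbs1, Sox9, Fosl1, Otud1 and Nrgn. Of the DEGs, 43 had a mean of under 100 reads per library, among them the miRNA precursors Mir122 and Mir6386, and the lowest mean of any DEG was 1.17 reads. On genes as short as miRNA precursors, 1 read is worth far more FPKM than on a gene of 1 kilobase.

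**Figure D1:**
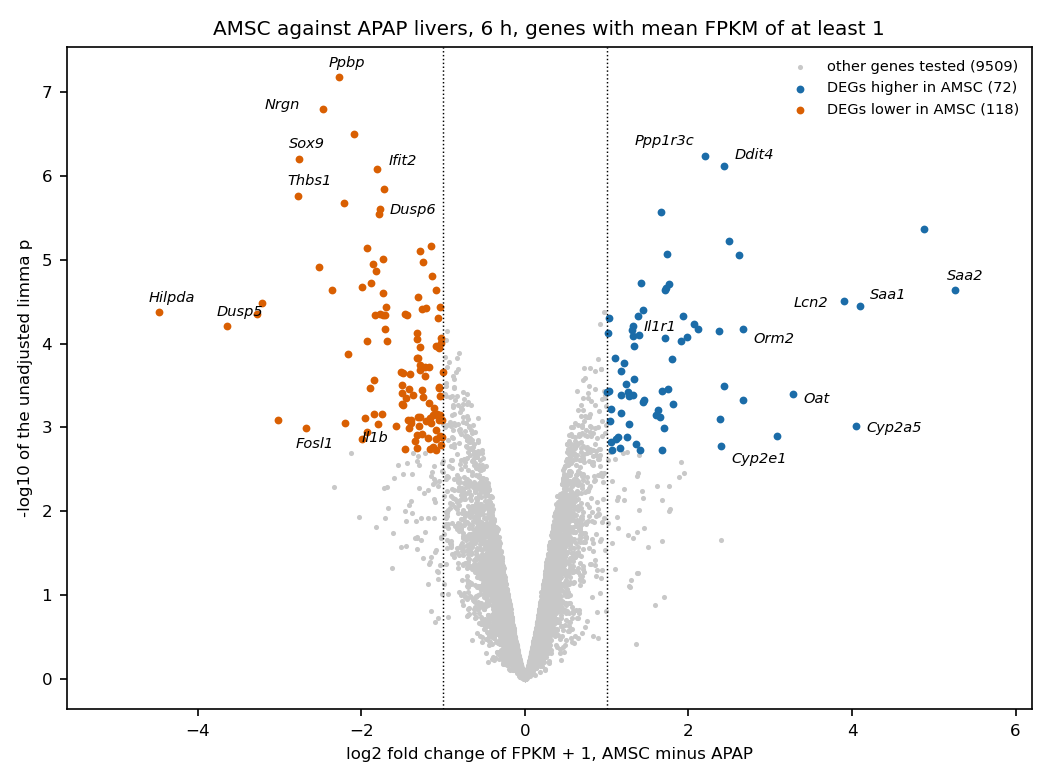
Each point is 1 of the 9699 genes tested, with the log2 fold change of FPKM + 1 (AMSC minus APAP) on the x axis and the -log10 of the unadjusted limma p on the y axis. The 72 DEGs higher in the AMSC group (blue) reach a log2 fold change of 5.26 for Saa2, and the 118 lower ones (orange) reach -4.47 for Hilpda.

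Pericentral hepatocyte genes were higher with AMSCs. Of 26 tested markers of pericentral hepatocytes, 8 rose, none fell and 25 had a positive log2 fold change, with a median of 1.36 against 0.01 over all genes tested. Groups did not overlap in 16 of the 26 (61.5%), all of them higher in the AMSC group, against 14.6% of all genes tested. In bulk tissue, fewer cells of a type and less RNA per cell cannot be told apart. Cyp2e1 (ENSMUSG00000025479, chr7:140763739-140774987, + strand), the main enzyme of APAP activation, was at 1541, 294 and 705 FPKM in the APAP group and 3848, 3521 and 3488 FPKM in the AMSC group. The AMSC livers lay close together and above all APAP livers, of which replicate 2 was the lowest (log2 fold change 2.4, SE 0.51, adjusted p = 0.0474). NC livers had 3408 ± 181 FPKM (SD, n = 3). Glul (ENSMUSG00000026473, chr1:153899944-153909723, + strand), the glutamine synthetase of the last rows of hepatocytes around the central vein, was at 45.5, 20.7 and 29.4 FPKM in the APAP group and 112, 138 and 160.3 FPKM in the AMSC group (log2 fold change 2.12, SE 0.27, adjusted p = 0.00998). Again APAP replicate 2 was lowest, and no AMSC liver reached the 253 ± 14.6 FPKM of the NC group. Oat, the ornithine aminotransferase of the same cells, was at 89.7, 14 and 33.7 FPKM in the APAP group and 308, 342 and 410.0 FPKM in the AMSC group (log2 fold change 3.28, SE 0.56, adjusted p = 0.0262), and it overlaps Fgfr2 on its own strand in the table. Slc1a2, a glutamate transporter, was at 0.971, 0.0614 and 0.283 FPKM in the APAP group and 3.53, 4.25 and 5.27 FPKM in the AMSC group, and rose by 1.93 on the log2 scale (SE 0.24, adjusted p = 0.00812) but stayed below the NC level of 10.4 ± 1.9 FPKM. Slc1a2 was named after its values had been seen.

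The other 4 rises among the pericentral genes were in xenobiotic and lipid metabolism. Cyp2a5, a coumarin hydroxylase, rose from 26.2 ± 27.1 to 299 ± 109 FPKM (SD, n = 3, log2 fold change 4.05, SE 0.79, adjusted p = 0.0373), and APAP replicate 2 had only 3.66 FPKM. Aldh3a2, a fatty aldehyde dehydrogenase, went from 6.29 ± 5.2 to 31.1 ± 1.89 FPKM (log2 fold change 2.39, SE 0.45, adjusted p = 0.0353). Ahr, the aryl hydrocarbon receptor, rose by 1.46 and Gstm3, a glutathione S-transferase, by 1.36 on the log2 scale (adjusted p = 0.0273 and 0.0465). Cyp2a5 and Gstm3 have close paralogs between which reads could have been split. The one pericentral marker with a negative log2 fold change was Cyp1a2 (-0.45, SE 0.39, adjusted p = 0.57), another APAP-oxidising enzyme. It was at 576, 173 and 378 FPKM in the APAP group and 222, 243 and 276 FPKM in the AMSC group, against 755 ± 197 FPKM in the NC group, so the AMSC livers lay inside the range of the APAP livers. Summed over the listed genes, the pericentral level was 1786 to 4188 FPKM over APAP livers and 6924 to 7113 FPKM over AMSC livers, with 7117 to 9139 FPKM in the NC group. Between 2 and 13 genes of the list passed as higher when a liver was left out, the fewest without AMSC replicate 2, AMSC replicate 3 or AMSC replicate 4. Cyp2e1, Oat, Cyp2a5 and Aldh3a2 were each called in only 2 of these 6 fits, and Glul and Slc1a2 in all 6.

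Periportal markers mostly had the opposite sign. Of 24 tested, 2 fell, none rose and 19 had a negative log2 fold change (median -0.29). Every AMSC liver was below every APAP liver for 13 of the 24 (54.2%), against 12.4% of all genes tested, and 6 of the 24 were lower at an adjusted p of at most 0.05 alone. Cdh1, the E-cadherin of periportal hepatocytes and of bile ducts, was at 11.7, 23 and 15.3 FPKM in the APAP group and 4.34, 5.77 and 5.21 FPKM in the AMSC group (log2 fold change -1.49, SE 0.23, adjusted p = 0.0196). Hsd17b6, a steroid dehydrogenase, fell from 230.1 ± 68 to 101 ± 14.7 FPKM (log2 fold change -1.15, SE 0.22, adjusted p = 0.0369). Cyp2f2 and Hal, which mark periportal hepatocytes, reached an adjusted p under 0.05 with too small a fold change. Cyp2f2 was at 819, 818 and 725 FPKM in the APAP group and 399, 434 and 378 FPKM in the AMSC group, and the groups did not overlap (log2 fold change -0.96, SE 0.13, adjusted p = 0.0113). Hal, the histidine ammonia-lyase, had 104, 112 and 103 FPKM in the APAP group and 51.5, 68.6 and 54.8 FPKM in the AMSC group (log2 fold change -0.87, SE 0.14, adjusted p = 0.0251). The urea cycle genes Cps1 and Ass1 had log2 fold changes of -0.01 (SE 0.21) and -0.16 (SE 0.13). Leaving out each liver in turn gave 0 to 4 DEGs that were lower, the fewest without AMSC replicate 2 or AMSC replicate 4.

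Among 32 tested genes of APAP metabolism, 3 rose (9.38%, against 0.742% of all genes tested) and none fell, with a median log2 fold change of 0.03. Beside Cyp2e1 and Ahr, the third was Por, the reductase that feeds electrons to all microsomal P450 enzymes, at 135, 158 and 145 FPKM in the APAP group and 278, 299 and 320.0 FPKM in the AMSC group (log2 fold change 1.03, SE 0.13, adjusted p = 0.00832). The AMSC livers were above both the APAP livers and the NC livers (149 ± 27.1 FPKM). Cyp3a11 and the glutathione S-transferase gene Gstp1 had log2 fold changes of 0.09 (SE 0.21) and -0.17 (SE 0.21).

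**Figure D2:**
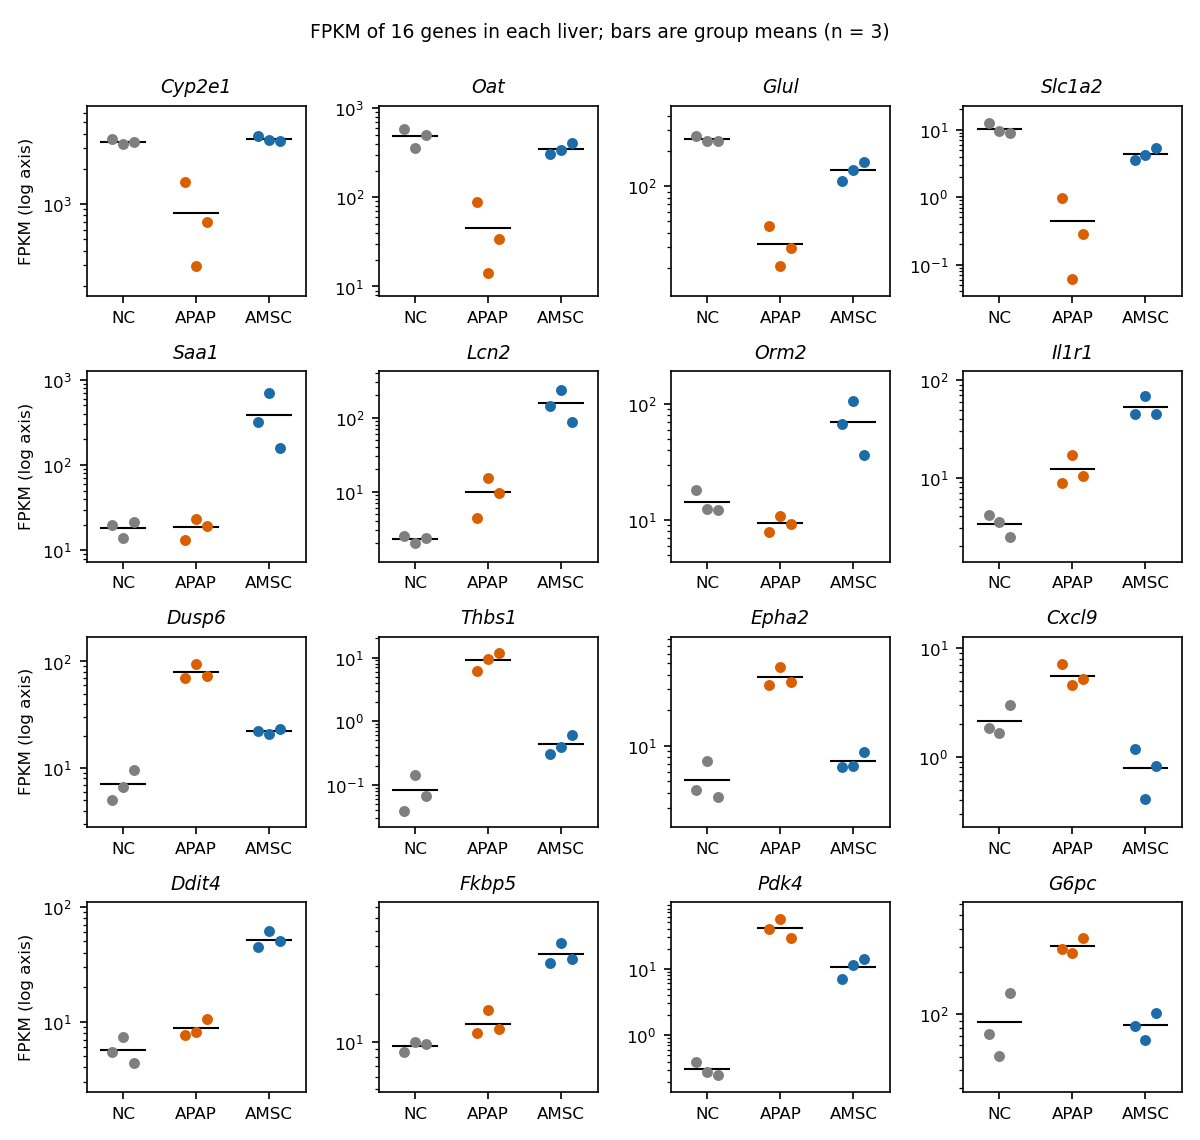
FPKM (log axis) of 16 genes in each of the 9 livers, with points for the NC (grey), APAP (orange) and AMSC (blue) groups and bars for the group means (n = 3). The top row shows pericentral genes, which are lowest in the APAP group, such as Cyp2e1 at 294 to 1541 FPKM against 3488 to 3848 FPKM in the AMSC group, and in the second row the AMSC livers lie above both other groups.

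Acute-phase genes held more rises than any other list. Of 31 tested acute-phase genes, 10 rose and 1, Serpina3g, fell, with a median log2 fold change of 0.64. These DEGs were 35.48% of the list, against 1.96% of all genes tested. Serum amyloid A genes, whose products are the main inducible apolipoproteins of mouse plasma, led the list. Saa1 was at 13.3, 23.4 and 19.2 FPKM in the APAP group and 317, 699 and 158 FPKM in the AMSC group (log2 fold change 4.1, SE 0.48, adjusted p = 0.00812), and Saa2 was at 3.02, 4.81 and 2.63 FPKM in the APAP group and 167, 429 and 65.3 FPKM in the AMSC group (log2 fold change 5.26, SE 0.59, adjusted p = 0.00643). Replicate 4 was the lowest AMSC liver for both and still far above every APAP liver, and the APAP livers were at the level of the NC livers (18.4 ± 3.95 FPKM for Saa1 and 3.61 ± 0.851 FPKM for Saa2). Lcn2, the siderophore-binding lipocalin, was at 4.43, 15.1 and 9.67 FPKM in the APAP group and 145, 236 and 87.8 FPKM in the AMSC group (log2 fold change 3.9, SE 0.45, adjusted p = 0.00784) and at 2.3 ± 0.257 FPKM in the NC group. Orm2 and Orm3, which encode orosomucoids, rose from 9.34 ± 1.47 to 70.1 ± 35.3 FPKM and from 3.63 ± 1.13 to 25.1 ± 5.61 FPKM (log2 fold change 2.66, SE 0.34, adjusted p = 0.00998 for Orm2). For Saa1, Saa2, Lcn2 and Orm2 alike, AMSC replicate 3 was highest and replicate 4 lowest of the AMSC group. Saa1 and Saa2 are close paralogs, as are Orm2 and Orm3, so the separate values within each pair are uncertain.

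The remaining acute-phase DEGs moved less, and of these Hp, Serpina3n, Lrg1, Steap4 and Serpina3g were named after their values had been seen. Hp, which encodes the haemoglobin-binding haptoglobin, was at 1725, 2121 and 1975 FPKM in the APAP group and 3947, 5396 and 3055 FPKM in the AMSC group (fold 2.13 of the means, adjusted p = 0.0456). Hamp, which encodes the iron hormone hepcidin, was at 881, 566 and 1136 FPKM in the APAP group and 1977, 3457 and 2352 FPKM in the AMSC group (fold 3.01, adjusted p = 0.0343). Serpina3n, an inhibitor of serine proteases, was at 211, 282 and 217 FPKM in the APAP group and 761, 1211 and 593 FPKM in the AMSC group. Lrg1 and Steap4, a secreted glycoprotein and a metalloreductase, had log2 fold changes of 1.44 (SE 0.25) and 1.81 (SE 0.32). Serpina3g, a neighbour of Serpina3n, went from 18 ± 2.51 to 8.47 ± 1.25 FPKM (log2 fold change -1.003, SE 0.15, adjusted p = 0.019). Members that did not pass include Saa3 (0.15, SE 0.20) and Saa4 (1.39, SE 0.41, adjusted p = 0.112), and the metallothionein gene Mt1 at 911, 2818 and 2521 FPKM in the APAP group and 4311, 3612 and 2964 FPKM in the AMSC group. Between 5 and 8 genes of the list passed as higher when a liver was left out, the fewest without AMSC replicate 2. Saa1, Saa2, Lcn2, Orm2 and Orm3 were called in all 6 of these fits, Hamp in 1 and Hp in none.

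Promoter sequence of Saa1, Saa2, Orm2 and Orm3 is shown because the promoters within each pair are alike. Reads could have been shared between the copies of a pair, so whether each copy rose by itself is uncertain. The windows that follow are the 200 bases before the RefSeq start on GRCm38.p6, read 5′ to 3′ on the strand of the gene, with the C/EBP motif TTGCNNAA in capitals. Of the 9699 genes tested, 7189 had a promoter in the RefSeq table, and the motif stood on either strand within 250 bases before the start in 8.0% of them, in 10 of 62 promoters of DEGs that rose (16.1%), in 13 of 25 promoters of all tested acute-phase genes (52.0%) and in 6 of 10 promoters of the DEGs among them (60.0%). The windows of Saa1 and Saa2 were identical in 195 of 201 aligned positions (97.0%), and those of Orm2 and Orm3 in 174 of 205 (84.9%). Both promoters of each pair count in the shares above, so these are not independent cases.
Saa1, chr7:46742981-46743180, - strand: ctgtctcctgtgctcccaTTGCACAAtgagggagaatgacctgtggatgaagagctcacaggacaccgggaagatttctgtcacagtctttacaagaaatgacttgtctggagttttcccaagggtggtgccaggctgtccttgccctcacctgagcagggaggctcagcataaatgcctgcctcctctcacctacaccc
Saa2, chr7:46751633-46751832, + strand: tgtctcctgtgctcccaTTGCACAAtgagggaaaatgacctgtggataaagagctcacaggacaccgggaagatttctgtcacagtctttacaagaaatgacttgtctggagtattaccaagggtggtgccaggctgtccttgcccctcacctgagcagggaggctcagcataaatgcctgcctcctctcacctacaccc
Orm2, chr4:63362249-63362448, + strand: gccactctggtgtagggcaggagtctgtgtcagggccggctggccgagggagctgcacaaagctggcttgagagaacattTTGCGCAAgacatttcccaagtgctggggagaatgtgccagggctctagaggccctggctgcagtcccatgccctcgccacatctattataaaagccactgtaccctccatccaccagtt
Orm3, chr4:63355958-63356157, + strand: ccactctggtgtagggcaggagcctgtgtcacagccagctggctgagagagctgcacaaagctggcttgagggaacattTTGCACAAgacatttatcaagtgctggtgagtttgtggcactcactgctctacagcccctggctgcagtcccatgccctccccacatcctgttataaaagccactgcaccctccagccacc
The NF-kB motif was in 3 of the 10 acute-phase DEG promoters, in 3 of the 25 and in 1.39% of all, and the STAT motif TTCNNNGAA was in 3 of the 10, in 8 of the 25 (32.0%) and in 5.62% of all. These are matches of letters, and binding was not measured.

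Cytokine pathway genes were split. Of 35 tested genes of IL-1, TNF and NF-kB signalling, 2 rose and 3 fell, with a median log2 fold change of -0.07. The receptor gene Il1r1 (ENSMUSG00000026072, chr1:40225080-40317257, + strand) was at 8.82, 17.2 and 10.4 FPKM in the APAP group and 45.1, 68.8 and 45.1 FPKM in the AMSC group (log2 fold change 2.06, SE 0.26, adjusted p = 0.00956), with every AMSC liver above every APAP liver and NC at 3.37 ± 0.836 FPKM. Among the ligands, Il1b was at 5.63, 1.48 and 7.96 FPKM in the APAP group and 0.264, 0.0403 and 0.174 FPKM in the AMSC group (log2 fold change -2.19, SE 0.42, adjusted p = 0.0367), and the AMSC livers were all under 0.3 FPKM. Il1a went from 2.04 ± 0.509 to 0.523 ± 0.363 FPKM (log2 fold change -1.01, SE 0.21, adjusted p = 0.0421). Cd14, the co-receptor for bacterial lipopolysaccharide on macrophages and hepatocytes, was at 54.3, 72.5 and 125 FPKM in the APAP group and 12.5, 4.65 and 7.32 FPKM in the AMSC group (log2 fold change -3.22, SE 0.38, adjusted p = 0.00812). The kinase subunit gene Ikbkg rose by 1.06 on the log2 scale and overlaps G6pdx on the opposite strand, so its value is uncertain. Nfkbia, the main inhibitor of NF-kB, had a log2 fold change of 0.12 (SE 0.21). Il1r1 and Cd14 were called in all 6 fits that left out a liver, Il1a and Il1b in 1 each and Ikbkg in none.

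Of 17 tested genes of IL-6 and STAT3 signalling, 2 rose and none fell (median -0.09). Il6ra, the ligand-binding IL-6 receptor, was at 7.84, 9.6 and 7.46 FPKM in the APAP group and 14, 19.7 and 19.9 FPKM in the AMSC group (log2 fold change 1.01, SE 0.17, adjusted p = 0.0259). Bcl3, an atypical member of the IkB family, was at 10.7, 13.4 and 11.8 FPKM in the APAP group and 35.1, 51.8 and 40.5 FPKM in the AMSC group (log2 fold change 1.73, SE 0.17, adjusted p = 0.00429), and it overlaps the antisense gene Gm16174, which was also a DEG. The log2 fold change of Stat3 was 0.50 (SE 0.24, adjusted p = 0.274), and the cytokine genes of the list were mostly under the minimum of 1 FPKM.

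Of 12 tested chemokine and chemokine receptor genes, 10 had a negative log2 fold change and 1, Cxcl9, fell. Cxcl9, which is induced by interferon-gamma and draws T cells, was at 7.07, 4.55 and 5.16 FPKM in the APAP group and 1.17, 0.408 and 0.816 FPKM in the AMSC group (log2 fold change -1.88, SE 0.20, adjusted p = 0.00643), below the 2.15 ± 0.715 FPKM of the NC group as well. Cxcl10 was at 10.5, 17 and 28.4 FPKM in the APAP group and 7.69, 3.48 and 5.29 FPKM in the AMSC group and Ccl2 at 1.77, 1.63 and 4.05 FPKM in the APAP group and 0.885, 0.203 and 0.643 FPKM in the AMSC group, without overlap of the groups but with adjusted p of 0.0598 and 0.0775. For the neutrophil attractant Cxcl1, values of 6.04, 43.7 and 38.9 FPKM in the APAP group and 40.3, 35.4 and 28.5 FPKM in the AMSC group overlapped.

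Interferon-induced genes were lower with AMSCs. Of 52 tested, 7 fell, none rose and 48 had a negative log2 fold change (median -0.51), and 17 were lower at an adjusted p of at most 0.05 alone, which is 32.7% of the list against 2.14% of all genes tested. Cxcl9, already counted among the chemokines, is 1 of these 7 DEGs and the largest fall of the list. Ifit2, which binds RNA and limits translation, was at 3.89, 3.33 and 4.41 FPKM in the APAP group and 0.401, 0.431 and 0.322 FPKM in the AMSC group (log2 fold change -1.81, SE 0.13, adjusted p = 0.00115). Ifit3, its neighbour, was at 9.997, 12 and 16.7 FPKM in the APAP group and 3.93, 2.29 and 2.97 FPKM in the AMSC group (log2 fold change -1.77, SE 0.22, adjusted p = 0.00812). Both stood lower in every AMSC liver than in any NC liver, where Ifit2 had 0.894 ± 0.291 FPKM and Ifit3 5.48 ± 1.11 FPKM. The guanylate-binding proteins Gbp2 and Gbp3, which act on membranes of intracellular pathogens, went from 2.8 ± 0.56 to 0.571 ± 0.301 FPKM and from 3.13 ± 0.295 to 0.743 ± 0.135 FPKM (adjusted p = 0.0127 and 0.00473). Ifit1 reached an adjusted p under 0.05 with too small a fold change (log2 fold change -0.79, SE 0.16, adjusted p = 0.0382). Ifitm3, a membrane protein gene with a higher level, was at 343, 345 and 463 FPKM in the APAP group and 309.8, 263 and 259 FPKM in the AMSC group (-0.46, SE 0.16, adjusted p = 0.169). Reads of the Ifit and Gbp families could have been split between paralogs. Leaving out each liver in turn gave 4 to 9 DEGs that were lower, the fewest without AMSC replicate 4.

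The interferon-stimulated response element, searched on both strands, was found in 16 of 39 promoters of tested interferon-induced genes (41.0%), in 4 of 6 of the DEGs among them (66.7%) and in 2.7% of all 7189 promoters. The windows of Ifit3 and Gbp3 are shown because each holds 2 copies, in capitals, both on the other strand. The 2 copies of Gbp3 overlap.
Ifit3, chr19:34583329-34583528, + strand: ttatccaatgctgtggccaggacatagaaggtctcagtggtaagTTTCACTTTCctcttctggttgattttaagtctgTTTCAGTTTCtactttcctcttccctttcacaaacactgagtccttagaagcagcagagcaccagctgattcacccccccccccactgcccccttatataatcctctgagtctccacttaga
Gbp3, chr3:142559844-142560043, + strand: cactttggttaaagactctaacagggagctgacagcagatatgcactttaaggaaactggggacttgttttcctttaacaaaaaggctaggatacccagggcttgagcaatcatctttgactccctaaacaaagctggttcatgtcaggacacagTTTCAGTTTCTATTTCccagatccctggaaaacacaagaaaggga
The coordinates are on GRCm38.p6, and whether a factor was bound there was not measured.

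The marker lists of macrophages, endothelial cells, neutrophils and red cells also had negative median log2 fold changes. Of 20 tested Kupffer cell and macrophage markers, 19 had a negative log2 fold change with a median of -1.12, and 1, Cd68, a lysosomal glycoprotein of macrophages, fell (9.19, 9.31 and 10.8 FPKM in the APAP group and 3.71, 5.02 and 2.33 FPKM in the AMSC group, log2 fold change -1.24, SE 0.21, adjusted p = 0.0267). Adgre1 (F4/80) was at 6.77, 2.27 and 9.996 FPKM in the APAP group and 1.54, 0.998 and 0.966 FPKM in the AMSC group (adjusted p = 0.074), and the Kupffer cell receptor genes Clec4f and Vsig4 had log2 fold changes of -0.96 (SE 0.29) and -1.39 (SE 0.39). The summed macrophage markers were 409 to 804 FPKM over APAP livers and 267 to 361 FPKM over AMSC livers. APAP replicate 2 was the lowest of its group for 16 of the 20 markers, and replicate 3 the highest for 12. Without APAP replicate 2, 14 of the 20 macrophage markers were lower DEGs, and without APAP replicate 3, AMSC replicate 2 or AMSC replicate 4 none was. Endothelial markers (19 tested, none a DEG by limma or voom, 10 at an unadjusted limma p under 0.05, median -0.69) summed to 62.2 to 172 FPKM over APAP livers and 57 to 61.6 FPKM over AMSC livers, and APAP replicate 1 was highest and replicate 2 lowest of its group for all 19. The 5 tested neutrophil markers had a median of -0.65, with S100a9 at 18.3, 3.71 and 7.41 FPKM in the APAP group and 2.53, 2.95 and 1.66 FPKM in the AMSC group (adjusted p = 0.127), and erythroid markers, of which 7 were tested, had a median of -1.46, with Hbb-bs at 566, 125 and 673 FPKM in the APAP group and 138, 78.4 and 98.2 FPKM in the AMSC group (adjusted p = 0.137). APAP replicate 2 had the lowest value of its group in both genes. Without APAP replicate 2, limma called 4 endothelial, 3 erythroid and 2 neutrophil markers lower, and it called none of them in the 5 fits that left out another liver. Of 26 neutrophil and 22 lymphocyte markers, most were under the minimum level, and Camp, Stfa3 and Ncr1 were at 0 in all 6 livers. The part of these cells in the falls of interferon, chemokine and Il1 genes was not tested.

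**Figure D3:**
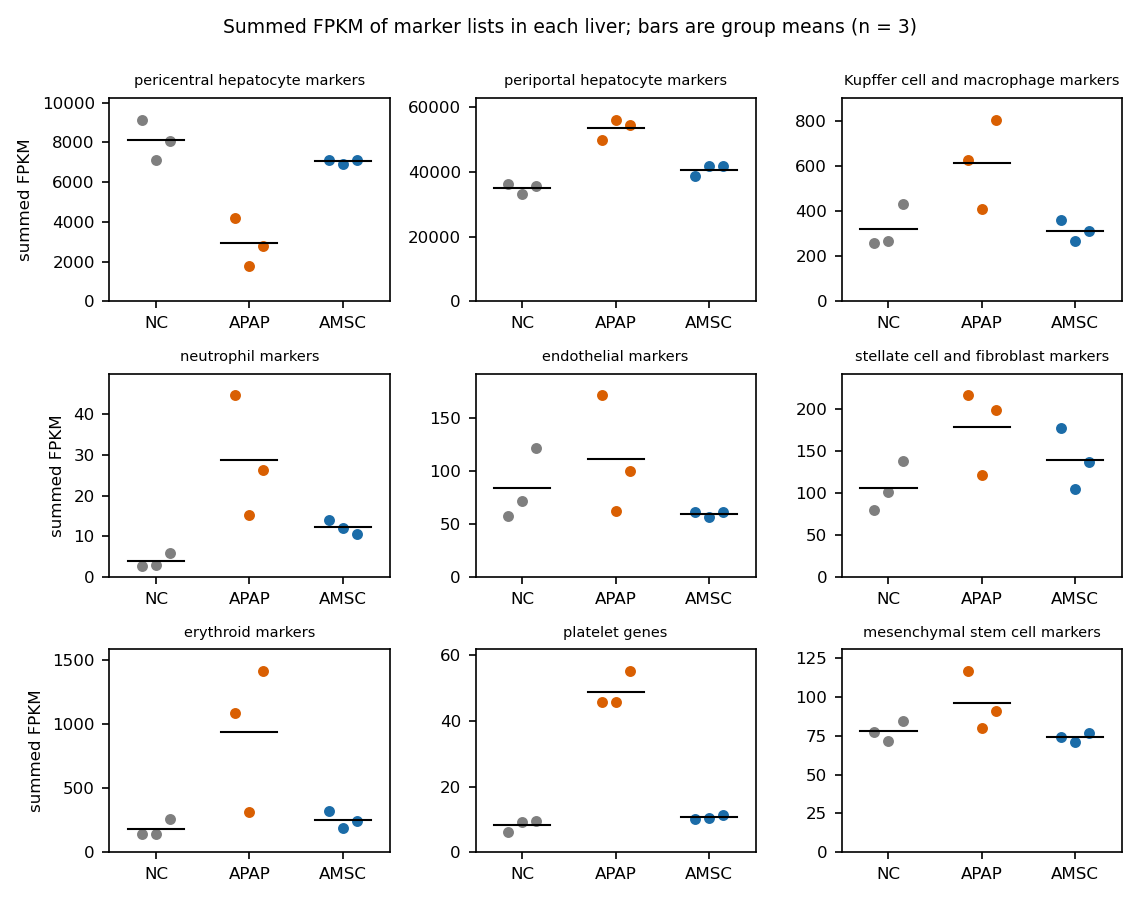
Summed FPKM over the listed genes of 9 marker lists in each liver, with points for NC (grey), APAP (orange) and AMSC (blue) and bars for group means (n = 3). Pericentral sums are 1786 to 4188 FPKM in the APAP group and 6924 to 7113 FPKM in the AMSC group, and the platelet list was put together after the values of its leading genes had been seen.

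Feedback regulators of MAP kinases, genes that growth factor and stress signals switch on and whose products damp those signals, were lower with AMSCs. Of 20 tested, 7 fell (35.0%, against 1.22% of all genes tested), none rose and 18 had a negative log2 fold change (median -0.63). Dusp6 (ENSMUSG00000019960, chr10:99263231-99267489, + strand), an ERK phosphatase, was at 69.5, 94.9 and 73.6 FPKM in the APAP group and 22.3, 20.8 and 23.5 FPKM in the AMSC group (log2 fold change -1.78, SE 0.15, adjusted p = 0.00213). Its groups are narrow and far apart, with NC at 7.13 ± 2.31 FPKM. Dusp5, a nuclear ERK phosphatase, was at 18.7, 80.8 and 58 FPKM in the APAP group and 2.09, 2.99 and 2.99 FPKM in the AMSC group (log2 fold change -3.64, SE 0.47, adjusted p = 0.00966). Dusp14 and Dusp4 went from 6.66 ± 2.68 to 0.432 ± 0.183 FPKM and from 16.9 ± 4.63 to 4.44 ± 0.829 FPKM (adjusted p = 0.00643 and 0.00812). The receptor tyrosine kinase gene Epha2 was at 32.8, 46.5 and 34.6 FPKM in the APAP group and 6.57, 6.76 and 8.94 FPKM in the AMSC group (log2 fold change -2.2, SE 0.18, adjusted p = 0.00202), close to the NC level of 5.14 ± 2.03 FPKM. Phlda1 was at 31.2, 92.2 and 73.3 FPKM in the APAP group and 14.2, 17.9 and 12.5 FPKM in the AMSC group (log2 fold change -1.95, SE 0.37, adjusted p = 0.0345). Every AMSC liver and also APAP replicate 1 lay inside the NC range of 8.99 to 34.8 FPKM. Dusp1, which removes phosphate from JNK and p38, had 115, 156 and 141 FPKM in the APAP group and 98.1, 83.2 and 119.5 FPKM in the AMSC group (adjusted p = 0.208), and Errfi1, an inhibitor of the EGF receptor, had a log2 fold change of -0.20 (SE 0.17). Between 6 and 7 genes of the list passed as lower when a liver was left out, and 6 in 5 of the 6 fits. Phlda1 was the DEG lost in 5 of them.

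The promoter of Dusp5 is shown because it was 1 of 5 among 82 promoters of DEGs that fell (6.1%) with a CArG box, the site of serum response factor, against 1.13% of all 7189 promoters. Among 17 promoters of tested MAPK feedback regulators it was the only 1 with this box, so the box was not a shared trait of that list. Its 2 copies are adjacent, in capitals, in the 200 bases before the start.
Dusp5, chr19:53528945-53529144, + strand: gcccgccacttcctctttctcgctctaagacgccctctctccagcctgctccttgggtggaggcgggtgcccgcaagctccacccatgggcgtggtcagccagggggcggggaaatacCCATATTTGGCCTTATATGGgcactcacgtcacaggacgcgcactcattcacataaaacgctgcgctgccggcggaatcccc
The AP-1 motif TGANTCA was in 11 of the 82 (13.4%) and in 4.26% of all, and the TATA box TATAAA in 18 of the 82 (22.0%) and in 6.7% of all, with 17.7% among DEGs that rose. The AP-1 motif was in 0 of the 17 promoters of tested MAPK feedback regulators. It was in 1 of 25 promoters of tested AP-1 and immediate-early genes (4.0%).

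Some ErbB ligand and growth factor genes were also lower with AMSCs. Of 38 tested ErbB ligands and other growth factor genes, 4 fell and 1 rose (median -0.22), which is 13.16% of the list against 1.96% of all genes tested. The EGF receptor ligands Hbegf and Areg were both lower. Hbegf was at 6.41, 23.2 and 18.2 FPKM in the APAP group and 0.743, 0.292 and 0.673 FPKM in the AMSC group (log2 fold change -3.28, SE 0.40, adjusted p = 0.00812), and Areg, the amphiregulin gene, at 8.59, 4.58 and 8.27 FPKM in the APAP group and 1.24, 0.95 and 0.821 FPKM in the AMSC group (log2 fold change -1.99, SE 0.22, adjusted p = 0.00643). Igfbp1, a binding protein of insulin-like growth factors, was at 1113, 1722 and 1716 FPKM in the APAP group and 809, 412 and 607 FPKM in the AMSC group (log2 fold change -1.34, SE 0.28, adjusted p = 0.0447), far above the 5.76 ± 4.52 FPKM of NC livers in both groups. As the fasting state of the NC mice is not stated, fasting and APAP cannot be told apart in this gap to NC. Inhbb, an activin subunit, went from 3.49 ± 1.2 to 0.812 ± 0.187 FPKM (log2 fold change -1.28, SE 0.20, adjusted p = 0.0187). Nrg4, an ErbB4 ligand, rose by 1.25 on the log2 scale (adjusted p = 0.0421) and overlaps Fbxo22 on the opposite strand. The stress cytokine gene Gdf15 was at 303, 545 and 446 FPKM in the APAP group and 212, 72 and 224 FPKM in the AMSC group without overlap, but its adjusted p was 0.115. Leaving out each liver in turn gave 2 to 5 DEGs that were lower, the fewest without AMSC replicate 2, AMSC replicate 3 or AMSC replicate 4. Hbegf and Areg were called in all 6 of these fits, Igfbp1 in 1 and Nrg4 in none.

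Of 33 tested AP-1 and immediate-early genes, 4 fell (12.12%, against 1.22% of all genes tested) and none rose (median -0.40). They were Fosl1, Bhlhe40, Ier3 and Sik1. Fosl1, an AP-1 subunit that appears late in the response, was at 2.88, 15.4 and 12.4 FPKM in the APAP group and 0.406, 1.17 and 0.078 FPKM in the AMSC group (log2 fold change -2.67, SE 0.52, adjusted p = 0.0374). Bhlhe40, a repressor that also sits in the clock and hypoxia lists, was at 60.7, 71.7 and 61.7 FPKM in the APAP group and 18.7, 17.4 and 21 FPKM in the AMSC group (log2 fold change -1.72, SE 0.13, adjusted p = 0.00175), below the 31.5 ± 6.19 FPKM of the NC group. Ier3 and Sik1, a stress-induced survival gene and a salt-inducible kinase, went from 10.1 ± 4.05 to 2.78 ± 0.431 FPKM and from 20.1 ± 3.41 to 7.49 ± 1.64 FPKM (adjusted p = 0.0259 and 0.0158). The groups overlapped in Ier2 and Atf3, which are abundant first-wave genes. Ier2 was at 189, 549.6 and 472 FPKM in the APAP group and 366, 166 and 397 FPKM in the AMSC group and Atf3 at 173, 391 and 256 FPKM in the APAP group and 256, 231 and 224 FPKM in the AMSC group, with log2 fold changes of -0.34 (SE 0.46) and -0.13 (SE 0.27). The adjusted p of Fosl2 was 0.0246, at a log2 fold change of -0.96 (SE 0.16). Between 2 and 9 genes of the list passed as lower when a liver was left out, the fewest without APAP replicate 3 or AMSC replicate 2. Fosl1 was called in 1 of these fits and Bhlhe40 in all 6. Of 26 tested kinases and adaptors of the JNK and p38 cascades, only Gadd45g was a DEG. It was at 57.3, 117 and 124 FPKM in the APAP group and 275, 259 and 353 FPKM in the AMSC group (log2 fold change 1.62, SE 0.29, adjusted p = 0.032), whereas the related Gadd45a was at 40.1, 83.7 and 79.974 FPKM in the APAP group and 32.6, 16.2 and 26.6 FPKM in the AMSC group (log2 fold change -1.38, adjusted p = 0.0699), so these sensors had opposite signs.

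**Figure D4:**
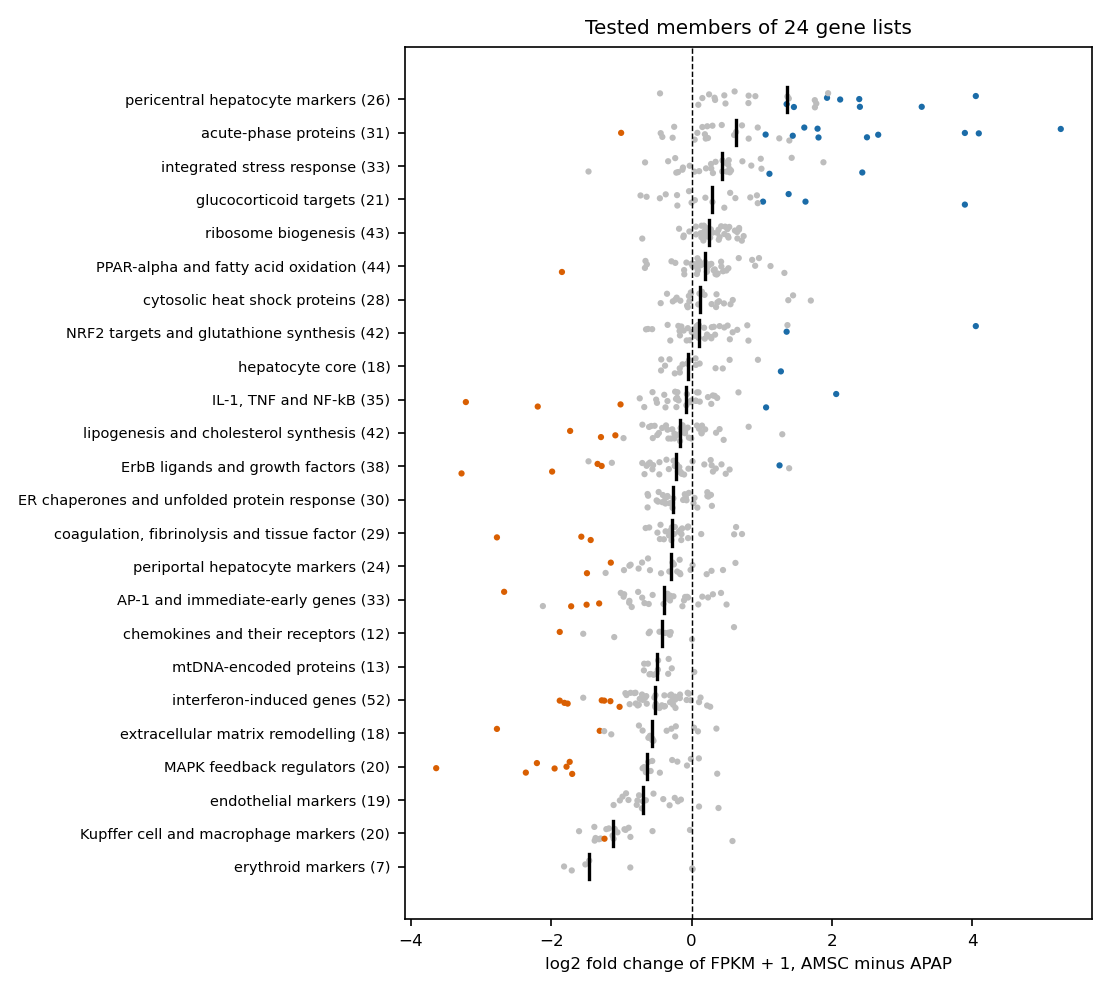
Log2 fold change of FPKM + 1 (AMSC minus APAP) on the x axis for each tested member of 24 gene lists, with the number tested in brackets, DEGs in blue (higher) or orange (lower), black bars for list medians and a dashed line for the median of all 9699 genes (0.01). Medians run from 1.36 for pericentral markers to -1.46 for erythroid markers.

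Stress response lists moved unevenly. In the integrated stress response, which raises amino acid synthesis when translation is held back, 2 of 33 tested genes rose, none fell and 24 had a positive log2 fold change (median 0.44). Ddit4, an inhibitor of mTORC1, was at 7.6, 8.14 and 10.6 FPKM in the APAP group and 44.6, 61.1 and 50.2 FPKM in the AMSC group (log2 fold change 2.43, SE 0.17, adjusted p = 0.00115), and NC livers were near the APAP livers (5.72 ± 1.51 FPKM). Mthfd2, a mitochondrial folate enzyme, went from 2.23 ± 0.818 to 5.88 ± 1.26 FPKM (log2 fold change 1.11, SE 0.23, adjusted p = 0.0434). Chac1, which degrades glutathione, was at 6.38, 26 and 24.8 FPKM in the APAP group and 65.7, 51.8 and 71.8 FPKM in the AMSC group with an adjusted p of 0.0725. Its regulators Atf4 and Ddit3 had log2 fold changes of -0.19 (SE 0.28) and 0.54 (SE 0.45). Of 25 tested p53 targets, 1 rose (Gadd45g) and 2 fell, and 12 log2 fold changes were positive and 13 negative (median -0.002). Mdm2, the ligase that degrades p53, went from 36.7 ± 11.5 to 16.9 ± 1.19 FPKM (log2 fold change -1.04, SE 0.21, adjusted p = 0.042) and Plk2, a polo-like kinase, from 6.48 ± 0.168 to 2.38 ± 0.117 FPKM (log2 fold change -1.15, SE 0.11, adjusted p = 0.00408), while Cdkn1a (p21) had 44.7, 83.3 and 60.9 FPKM in the APAP group and 67.2, 45.5 and 82.1 FPKM in the AMSC group, with overlapping groups. Ddit4 and Plk2 were called in all 6 fits that left out a liver, Mdm2 in 1 and Mthfd2 in none.

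None of 30 tested ER chaperone genes, 28 cytosolic heat shock genes, 31 genes of the Bcl2 family, apoptosis and necroptosis or 33 autophagy genes was a DEG by limma, and voom on the recovered reads called none of them either, while 9, 6, 5 and 5 of them had an unadjusted limma p under 0.05. For the ER chaperones 22 of 30 log2 fold changes were negative (median -0.26), and Hspa5 (BiP) was at 272, 449 and 429 FPKM in the APAP group and 221, 271 and 238 FPKM in the AMSC group (adjusted p = 0.147). Among heat shock genes Hspa1b was at 8.67, 2.88 and 7.51 FPKM in the APAP group and 10.4, 119 and 7.07 FPKM in the AMSC group, where the difference between the means rests on AMSC replicate 3. Of 42 tested NRF2 targets, only Cyp2a5 and Gstm3 rose, both also pericentral markers. Nqo1, a quinone reductase often used as an NRF2 readout, was at 2.74, 5.04 and 4.84 FPKM in the APAP group and 7.01, 9.12 and 7.5 FPKM in the AMSC group (adjusted p = 0.0808), and Gclc, the catalytic subunit for glutathione synthesis, at 106, 290.1 and 170.0 FPKM in the APAP group and 196, 366 and 193 FPKM in the AMSC group (adjusted p = 0.551).

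Metabolic genes changed in glucose, lipid and steroid-response pathways. Of 21 tested glucocorticoid targets, 4 rose (Lcn2, Gadd45g, Fkbp5 and Klf15) and none fell (median 0.30). These were 19.05% of the list, against 1.96% of all genes tested, and Lcn2 and Gadd45g were already counted in lists above. Fkbp5, a co-chaperone of the glucocorticoid receptor, was at 11.3, 15.7 and 11.9 FPKM in the APAP group and 31.1, 41.9 and 33.3 FPKM in the AMSC group (log2 fold change 1.38, SE 0.17, adjusted p = 0.00812), above the 9.42 ± 0.711 FPKM of NC livers. Klf15, which controls amino acid use in fasting, was at 28.3, 33.9 and 36.4 FPKM in the APAP group and 65.3, 71.4 and 65.4 FPKM in the AMSC group (log2 fold change 1.02, SE 0.13, adjusted p = 0.0104). Tsc22d3 (GILZ), an anti-inflammatory target, had a log2 fold change of 0.20 (SE 0.13). Lcn2 and Fkbp5 were called in all 6 fits with 1 liver left out, Klf15 in 4 and Gadd45g in 2.

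In gluconeogenesis and insulin response, 2 of 27 tested genes fell and 1 rose. G6pc, which releases glucose from the hepatocyte, was at 290.1, 269 and 345 FPKM in the APAP group and 81.9, 65.5 and 102 FPKM in the AMSC group (log2 fold change -1.86, SE 0.19, adjusted p = 0.00473), and the AMSC livers lay inside the range of the NC livers (88.1 ± 47.9 FPKM). Pck1, the other main control point of gluconeogenesis, had 1043, 1089 and 998 FPKM in the APAP group and 879.5, 964 and 761 FPKM in the AMSC group (adjusted p = 0.327). Ppp1r3c, a subunit that brings protein phosphatase to glycogen, was at 11.1, 9.29 and 12.4 FPKM in the APAP group and 47.7, 59.8 and 54.3 FPKM in the AMSC group (log2 fold change 2.2, SE 0.15, adjusted p = 0.00115), and both APAP and NC livers were lower (14.4 ± 2.4 FPKM in NC). Pdk4, which blocks pyruvate oxidation in fasting, was the only DEG of 44 tested PPAR-alpha and fatty acid oxidation genes (2.27%, near the 1.96% of all genes tested). It was at 39.1, 55.5 and 28.4 FPKM in the APAP group and 6.9, 11.2 and 13.9 FPKM in the AMSC group (log2 fold change -1.85, SE 0.29, adjusted p = 0.022), with 0.307 ± 0.0759 FPKM in NC. Whether the NC mice were fasted is not stated, so fasting and APAP cannot be told apart when NC levels of these genes are compared. The PPAR-alpha list as a whole had a median of 0.19 with 34 of 44 positive, and Cyp4a14, a fatty acid hydroxylase induced through PPAR-alpha, was at 799, 536 and 322 FPKM in the APAP group and 1159, 1483 and 836 FPKM in the AMSC group (adjusted p = 0.121).

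Lipid droplet genes moved in both directions. Of 29 tested, 3 rose and 2 fell. Hilpda (ENSMUSG00000043421, chr6:29272488-29275446, + strand), an inhibitor of adipose triglyceride lipase that hypoxia and fatty acids induce, was at 52.7, 212 and 189 FPKM in the APAP group and 4.34, 2.93 and 8.63 FPKM in the AMSC group (log2 fold change -4.47, SE 0.54, adjusted p = 0.00812), and NC livers had 1.17 ± 0.332 FPKM. Plin5, which tethers droplets to mitochondria, was at 50.2, 74.5 and 56.9 FPKM in the APAP group and 136, 124 and 204 FPKM in the AMSC group (log2 fold change 1.33, SE 0.23, adjusted p = 0.0262), above the 31.6 ± 8.52 FPKM of NC livers. Fitm1, which helps droplets form, rose from 2.15 ± 0.833 to 9.17 ± 0.655 FPKM (log2 fold change 1.72, SE 0.19, adjusted p = 0.00643), and Plin4 rose by 1.17 on the log2 scale with a gene on the opposite strand, Hdgfl2. Plin2, the most used droplet marker of liver, had 267, 475 and 268 FPKM in the APAP group and 251, 262 and 411 FPKM in the AMSC group, without separation. Of 42 tested genes of lipogenesis and cholesterol synthesis, 3 fell and none rose (median -0.16). Insig1 and Acly, an ER retention protein of the sterol pathway and the ATP citrate lyase, went from 104 ± 21 to 42.7 ± 12.4 FPKM and from 31.6 ± 4.01 to 14.4 ± 2.08 FPKM (adjusted p = 0.0373 and 0.0124).

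Bile acid, hypoxia and clock lists held DEGs of different direction. Of 26 tested bile acid genes, only Nr0b2 was a DEG. Nr0b2 (SHP), the repressor that bile acids induce through FXR, was at 46.4, 52.7 and 63.7 FPKM in the APAP group and 15.9, 15.2 and 14.1 FPKM in the AMSC group (log2 fold change -1.77, SE 0.15, adjusted p = 0.00213). Cyp7a1, the rate-limiting enzyme of bile acid synthesis, was at 1.34, 0.251 and 1.8 FPKM in the APAP group and 3.83, 15.1 and 3.25 FPKM in the AMSC group (adjusted p = 0.111), and both groups were far below the 62.2 ± 10.9 FPKM of NC livers. Of 38 tested hypoxia and glycolysis genes, Ddit4 rose and Hilpda, Bhlhe40 and Tfrc fell. Tfrc, the transferrin receptor, went from 13.3 ± 2.57 to 5.65 ± 1.44 FPKM (log2 fold change -1.11, SE 0.20, adjusted p = 0.0309). Ldha and Pgk1, glycolytic enzymes that hypoxia induces, had log2 fold changes of 0.47 (SE 0.14) and -0.14 (SE 0.13), and Hif1a of -0.57 (SE 0.17, adjusted p = 0.112), and the DEGs of the list did not share a direction. Of 21 tested clock genes, Usp2 and Ciart rose and Bhlhe40 fell. Usp2 was at 2.03, 1.34 and 1.58 FPKM in the APAP group and 5.4, 7.35 and 4.43 FPKM in the AMSC group (log2 fold change 1.33, SE 0.18, adjusted p = 0.0124) and Ciart, a repressor of the clock, at 5.74, 8.96 and 6.68 FPKM in the APAP group and 16.4, 16.5 and 15.6 FPKM in the AMSC group (log2 fold change 1.1, SE 0.16, adjusted p = 0.0158). Usp2 was called in 5 of the 6 fits that left out a liver, Ciart in 1, Tfrc in 2 and Nr0b2 in all 6.

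Coagulation genes fell in part. Of 29 tested coagulation and fibrinolysis genes, 3 fell and none rose (median -0.28). Thbs1 (ENSMUSG00000040152, chr2:118111876-118127133, + strand), the matricellular thrombospondin, was at 6.11, 9.33 and 11.8 FPKM in the APAP group and 0.311, 0.393 and 0.614 FPKM in the AMSC group (log2 fold change -2.77, SE 0.22, adjusted p = 0.00185). Even the lowest APAP liver was far above the highest AMSC liver. Plaur, the urokinase receptor, went from 2.997 ± 1.63 to 0.265 ± 0.149 FPKM and Thbd, the thrombomodulin gene, from 8.43 ± 1.88 to 2.46 ± 0.471 FPKM (adjusted p = 0.0373 and 0.00812). The fibrinogen genes Fga, Fgb and Fgg had log2 fold changes of 0.64, 0.72 and 0.61 (adjusted p = 0.0902, 0.0567 and 0.0927), without overlap for Fgb at 1082, 1253 and 1222 FPKM in the APAP group and 1899, 2336 and 1669.9 FPKM in the AMSC group. In the matrix list Adamts1, a secreted protease, was at 19.3, 11.6 and 13.1 FPKM in the APAP group and 5.32, 4.59 and 5.67 FPKM in the AMSC group (log2 fold change -1.31, SE 0.19, adjusted p = 0.0158), while Krt8 was at 242, 1158 and 718 FPKM in the APAP group and 241, 243 and 257 FPKM in the AMSC group (adjusted p = 0.206), with APAP replicate 1 at the level of the AMSC livers. Thbs1 and Thbd were called in all 6 fits with 1 liver left out, Adamts1 in 3 and Plaur in 1.

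None of the 13 tested protein genes of the mitochondrial genome was a DEG by limma or by voom. Of these 13, 4 had an unadjusted limma p under 0.05, 12 had a negative log2 fold change and the median was -0.50. The mitochondrial tRNA gene mt-Tl1, which is not in this list, was a lower DEG (log2 fold change -1.25) and was called in 1 of the 6 fits that left out a liver. Reads on all genes of the mitochondrial genome made up 4.92% to 6.82% of all reads on genes over APAP livers and 3.27% to 5.11% over AMSC livers. The most abundant of the 13, mt-Co1, was at 16711, 16421 and 11558 FPKM in the APAP group and 11321, 11238 and 8088 FPKM in the AMSC group (adjusted p = 0.21), and APAP replicate 3 was close to the AMSC livers. Ribosome biogenesis genes had no DEG among 43 tested by limma or voom (17 at an unadjusted limma p under 0.05), and 38 had a positive log2 fold change (median 0.25) and 20 did not overlap, all higher in the AMSC group, which is 46.5% of the list against 14.6% of all genes tested. Nop2, a nucleolar RNA methyltransferase, passed the adjusted p (5.002, 6.67 and 6.07 FPKM in the APAP group and 9.13, 12.7 and 9.96 FPKM in the AMSC group, log2 fold change 0.74, SE 0.16, adjusted p = 0.049), and Npm1 was at 50.2, 50.2 and 61.4 FPKM in the APAP group and 60.1, 43.4 and 47 FPKM in the AMSC group, with overlap. Of 12 tested cell cycle genes, none was a DEG by limma and 1 by voom, with 3 at an unadjusted limma p under 0.05.

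Bile duct and stellate cell markers held 1 DEG each. Of 8 tested cholangiocyte markers, Sox9, the transcription factor of bile duct cells that injured hepatocytes also switch on, was at 21.4, 33.1 and 25.6 FPKM in the APAP group and 2.95, 3.74 and 2.49 FPKM in the AMSC group (log2 fold change -2.76, SE 0.19, adjusted p = 0.00115). Krt19, Epcam and Spp1, which mark bile ducts, had log2 fold changes of -0.51 (SE 0.39), -0.29 (SE 0.22) and -0.75 (SE 0.31). Of 18 tested stellate cell and fibroblast markers, Hand2, a transcription factor of stellate cells, rose from 0.477 ± 0.222 to 3.87 ± 1.06 FPKM (log2 fold change 1.71, SE 0.19, adjusted p = 0.00643), while the list's median was -0.39 and Dcn, its decorin gene, was at 40.8, 17.3 and 33.7 FPKM in the APAP group and 31.7, 18 and 21.9 FPKM in the AMSC group. Prox1, in the hepatocyte core list, rose by 1.27 on the log2 scale (adjusted p = 0.0372) and overlaps the antisense gene Prox1os.

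Markers of mesenchymal stem cells were not called higher in the AMSC livers. Of 22 listed markers, 6 had a mean of at least 1 FPKM, none was a DEG by limma or voom, 4 had an unadjusted limma p under 0.05 and their median log2 fold change was -0.37. The markers summed to 80.1 to 117 FPKM over APAP livers and 71.1 to 76.5 FPKM over AMSC livers. In 11 of the 22 no APAP or AMSC liver reached 0.6 FPKM. Among these, Prrx1 was at most 0.0348 FPKM, Twist2 at most 0.0727 FPKM and Thy1 at most 0.244 FPKM in the AMSC group, and Meox2 was at 0 in all 6 livers. Listed genes above 1 FPKM, such as Eng at 23.1, 9.55 and 14.5 FPKM in the APAP group and 9.78, 7.98 and 9.52 FPKM in the AMSC group and Itgb1 at 56.9, 44.6 and 46.7 FPKM in the APAP group and 38, 38.3 and 44.3 FPKM in the AMSC group, are also expressed by cells of the liver itself. Pdgfrb, named after its values had been seen, was the 1 tested marker with a positive log2 fold change, at 1.33, 0.943 and 1.24 FPKM in the APAP group and 2.01, 1.91 and 1.66 FPKM in the AMSC group (log2 fold change 0.40, SE 0.13, adjusted p = 0.132), with every AMSC liver above every APAP liver. Twist2 and S100a4 were listed at 0 in all APAP livers and above 0 in 2 AMSC livers and 1 AMSC liver, with at most 0.114 FPKM for S100a4.

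The number of calls depended on single livers. Of the 190 DEGs, 66 were DEGs in each of the 6 fits that left out 1 liver, and 6 in none. Without APAP replicate 3, AMSC replicate 2, AMSC replicate 3 or AMSC replicate 4, the number of DEGs was 105, 101, 90 and 94, and without APAP replicate 1 or 2 it was 229 and 208. Beside the genes already given, Sox9, Hand2, Hilpda, Fitm1, Ppp1r3c, G6pc and Bcl3 kept their call in all 6 fits. Pdk4, Por and Gbp2 were called in 4 of them, Acly, Ier3, Inhbb and Cd68 in 3, Plin4, Plin5 and Il6ra in 2 and Prox1, Insig1, Ahr, Gstm3 and Hsd17b6 in 1.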

How the data were processed

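Liver mRNA was sequenced in 9 libraries, of which the 3 AMSC and 3 APAP libraries were compared and the 3 NC libraries gave side-by-side levels. The authors deposited FPKM values per gene with gene coordinates, and per the labels the libraries were made with a SMARTer mRNA-seq kit. Aligner, counter and strand setting are not given in the sources used here, so reads of a gene and its antisense partner cannot be told apart. Values were whole multiples of 1 read (100% within 0.1 read), and the read totals set the counting error. The deposited values were scaled by median-of-ratios size factors (the median over genes of a library's reads relative to all libraries) and not by read totals. The scaling total implied by the values, divided by this factor, was 1.47074e+07 in each library. No pair of libraries agreed within counting error (chi-square per degree of freedom between 15.1 and 53.9), so each was counted as 1 sample.

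The test was limma 3.58.1 (R 4.3.3, trend on) on log2(FPKM + 1) of the 6 libraries, for genes whose mean FPKM over all 9 libraries reached 1, and p-values were Benjamini-Hochberg adjusted over all 9699 genes. The members and the 44 gene lists were chosen with earlier results of these data known, and the platelet and MHC class II lists after their values were seen, so counts over lists are descriptions. Named genes are the 10 largest rises and falls, up to 5 DEGs and up to 4 other members of each list, chosen for their level or their place at the head of the list, and genes said to have been chosen later. Promoter sequences are from RefSeq on GRCm38.p6, which matched 7189 of the tested genes and 144 of the 190 DEGs. Alternatives were another pseudocount, filters, scalings, a fit of all 9 libraries, no trend, a replicate block, voom on the recovered reads, no minimum fold change, and each liver left out. Among the scalings, median-of-ratios over the 6 libraries largely repeats the scaling that the deposited values already had. A gene that the rule for named genes covers is not reported here.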

Additional observations from a re-analysis of the deposited data

How the results depend on the processing

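Of 68 alternative counts of DEGs, over all genes and over the listed genes, 39 stayed within 1.5 times the value reported. With all genes above 0 tested, 4 genes were higher and 17 lower, of which 3 and 9 were listed genes. A minimum mean of 5 FPKM left 54 lower DEGs, 26 of them listed; both filters change how many genes are tested. Without a minimum fold change, 159 were higher and 208 lower, with 68 listed genes lower. voom on the recovered reads called 116 higher and 179 lower. Leaving out 1 liver gave 36 to 75 higher and 53 to 154 lower DEGs, and 18 to 38 higher and 25 to 59 lower listed DEGs. Whether the replicate numbers pair the livers could not be decided, since only numbers 2 and 3 occur in both groups. Deviations from the group means had correlations of -0.10 (number 2) and -0.29 (number 3) between replicates of the same number. Between replicates of unlike number the correlations ran from -0.25 to 0.41. The fit with the replicate block called 127 higher and 208 lower, with 72 listed genes lower. No DEG named in the text changed sign under any alternative. Among the genes named, sign changes were found for 10 that are not DEGs. With the replicate block these were Cdkn1a at -0.36, Cps1 at 0.17, Cxcl1 at -0.12, Cyp3a11 at -0.12, Ddit3 at -0.056 and Nfkbia at -0.039. With 1 liver left out, the log2 fold change ran for Atf3 from -0.42 to 0.17, Atf4 from -0.44 to 0.047, Cdkn1a from -0.17 to 0.28, Cps1 from -0.19 to 0.14, Cxcl1 from -0.26 to 1.08, Cyp3a11 from -0.091 to 0.31, Ddit3 from -0.027 to 0.998, Ier2 from -0.82 to 0.057, Nfkbia from -0.022 to 0.36 and Plin2 from -0.34 to 0.16. The cause of these changes was not tested. Depth limits genes near 1 FPKM, and 43 DEGs had a mean of under 100 reads.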

Other observations

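Of the 190 DEGs, 109 were in none of the 44 lists. The following groups were chosen after their values had been seen. Platelet genes were lower in the AMSC group in 8 of 9 tested members of a list of 19, and 6 of them were DEGs. Ppbp, which encodes the platelet basic protein, was at 5.3, 6.03 and 5.29 FPKM in the APAP group and 0.407, 0.355 and 0.307 FPKM in the AMSC group (log2 fold change -2.27, SE 0.12, adjusted p = 0.000643 from limma). Pf4, the platelet factor 4 gene, was at 7.96, 8.73 and 9.29 FPKM in the APAP group and 1.31, 1.49 and 1.02 FPKM in the AMSC group (log2 fold change -2.09, SE 0.13, adjusted p = 0.00101). Gp9, a subunit of the von Willebrand factor receptor, was at 1.86, 2.56 and 4.39 FPKM in the APAP group and 0.143, 0 and 0.0755 FPKM in the AMSC group, and Nrgn, a calmodulin-binding protein gene that platelets carry, at 6.36, 8.39 and 8.65 FPKM in the APAP group and 0.607, 0.635 and 0.504 FPKM in the AMSC group. None of these overlapped between the groups, and APAP replicate 2, which was lowest in most markers of macrophages and red cells, was lowest in 3 of the 9. Summed over the list, levels were 45.6 to 55.2 FPKM over APAP livers and 10.2 to 11.3 FPKM over AMSC livers. Each fit that left out a liver still called 5 or 6 members. The part of platelets left in the tissue was not tested.

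Of 6 tested genes of MHC class II antigen presentation, 2 were lower DEGs. Without APAP replicate 2 it was 4, and 0 without each of the other 5 livers. H2-Aa was at 22.6, 13 and 16.8 FPKM in the APAP group and 8.26, 6.12 and 6.85 FPKM in the AMSC group (log2 fold change -1.17, SE 0.20, adjusted p = 0.0287) and H2-Ab1 at 25.1, 16.2 and 22.5 FPKM in the APAP group and 12, 6.91 and 9.71 FPKM in the AMSC group (log2 fold change -1.09, SE 0.22, adjusted p = 0.0432), while Cd74, the invariant chain gene, was at 103, 52.2 and 77.5 FPKM in the APAP group and 38.9, 24.5 and 33.3 FPKM in the AMSC group with an adjusted p of 0.0505. All 6 tested members had a negative log2 fold change.

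Other DEGs outside the lists include enzymes, receptors and transcripts without a protein. With a liver left out, Avpr1a, Mir122 and Mir6386 were called in 2 of the 6 fits, Mup17 in 1, Csad in 5 and the other genes of this paragraph in all 6. Alas1, the first enzyme of haem synthesis, was at 34.2, 51 and 50.9 FPKM in the APAP group and 144, 247 and 138 FPKM in the AMSC group (log2 fold change 1.91, SE 0.26, adjusted p = 0.0113). Csad, an enzyme of taurine synthesis, went from 14.7 ± 4.002 to 49.9 ± 10.1 FPKM (log2 fold change 1.71, SE 0.23, adjusted p = 0.0111), and Avpr1a, a vasopressin receptor gene, from 3.09 ± 1.75 to 11.3 ± 1.1 FPKM (log2 fold change 1.68, SE 0.28, adjusted p = 0.0259). Tsku, a secreted protein, was at 22.4, 11.7 and 8.95 FPKM in the APAP group and 59.2, 89.9 and 74.7 FPKM in the AMSC group (log2 fold change 2.38, SE 0.31, adjusted p = 0.010) and NC livers were at 109 ± 10.7 FPKM. Pparg, the lipid-regulating nuclear receptor gene, was at 0.278, 0.082 and 0.328 FPKM in the APAP group and 2.13, 3.07 and 1.6 FPKM in the AMSC group (log2 fold change 1.39, SE 0.18, adjusted p = 0.0107), so that the APAP livers were below the NC level of 1.91 ± 0.333 FPKM. Gm43305 (ENSMUSG00000105703, chr14:54292443-54297456, - strand), a processed transcript with no protein given in the table, was at 2.91, 1.53 and 3.53 FPKM in the APAP group and 57.2, 203 and 94.8 FPKM in the AMSC group (log2 fold change 4.88, SE 0.43, adjusted p = 0.00297), with NC at 9.16 ± 6.46 FPKM. Otud1, a deubiquitinase gene, was at 19.9, 43.6 and 34.9 FPKM in the APAP group and 4.58, 4.46 and 4.86 FPKM in the AMSC group (log2 fold change -2.52, SE 0.26, adjusted p = 0.00494). Mup17 and Cyp2c38 were at 22.4, 3.48 and 6.74 FPKM in the APAP group and 97.3, 39.3 and 125 FPKM in the AMSC group and at 1.3, 0.141 and 0.519 FPKM in the APAP group and 9.41, 9.95 and 7.05 FPKM in the AMSC group, and both have close paralogs. Mir122, the precursor of the main hepatocyte miRNA, was at 0, 1.22 and 3.38 FPKM in the APAP group and 14.3, 10.5 and 13.1 FPKM in the AMSC group, and Mir6386, on the strand opposite to Plscr1, was at 2.15, 19.4 and 7.15 FPKM in the APAP group and listed at 0 in every AMSC and NC liver. Both precursors rest on few reads, since 1 read on so short a gene is worth many times the FPKM it has on a longer gene.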
